A study of Homo sapiens with 4 samples.

Results

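Telomerase and the shelterin complex were followed through 10 genes, chosen by symbol: TERT, the 4 protein genes of the H/ACA core (DKC1, NOP10, NHP2 and GAR1) and 5 of the shelterin genes (TERF1, TERF2, POT1, TINF2 and ACD). All 10 were found by Ensembl identifier among the 20348 genes of the deposited table. The genes were chosen with the contrast of periplocin against DMSO already known, so their ratios in that contrast are a description and no test was applied to them.

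Telomerase is the reverse transcriptase that adds telomeric repeats to chromosome ends. TERT is its catalytic protein and copies the repeat from the RNA template TERC, while dyskerin (the product of DKC1), NOP10, NHP2 and GAR1 bind the H/ACA part of that RNA and are shared with the small nucleolar and Cajal body RNAs that guide pseudouridylation. Shelterin covers the repeats: TERF1 and TERF2 bind the double strand, POT1 binds the single-stranded overhang, and TINF2 and ACD (TPP1) link these proteins and bring telomerase to the end. TERT is silent in most differentiated cells and active in stem cells and most leukemias, whereas the other genes are expressed in nearly all cells.

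Both lines are human: K562 was derived from a chronic myeloid leukemia, THP-1 from a monocytic acute leukemia. Poly-A RNA was sequenced after 72 h with 100 nM periplocin, a plant cardiac glycoside, or with the solvent DMSO, which the sample labels call a blank. The labels name no genetic change in either line and no replicate culture, so each of the 4 conditions is 1 library. Without replicates, every interval given here is a 95% interval for counting error alone and each difference compares libraries, not conditions.

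Library totals were between 16381149 and 20622694 counts, so that 1 count was worth between 0.0506 and 0.0591 CPM (counts relative to the library total, scaled by TMM). Mitochondrially encoded genes held 5.62% of the K562 DMSO counts and 2.07% with periplocin, against 5.24% and 3.92% in THP-1. Of 8 markers of K562, 7 were higher in K562 DMSO than in THP-1 DMSO, the exception being LMO2, and all 8 markers of THP-1 were higher in THP-1 DMSO.

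TERT was the member that differed most between periplocin and DMSO in both lines. In THP-1 it had 530 counts (26.8 CPM) in DMSO and 5 counts (0.296 CPM) in periplocin, which is 90.8-fold lower (interval 38.7 to 281). In K562 it had 79 counts (4.63 CPM) in DMSO and 24 counts (1.38 CPM) in periplocin, which is 3.35-fold lower (interval 2.10 to 5.54). The order of the lines was therefore opposite in the 2 conditions, since THP-1 had more TERT than K562 in DMSO and less in periplocin. On the log2 scale the ratios were -6.50 (interval -8.13 to -5.27) in THP-1 and -1.75 (interval -2.47 to -1.07) in K562. The lines thus differed by -4.76 in log2 ratio. The counting standard error of that difference was 0.51 in natural-log units, not log2 units. Among the 13367 genes with at least 10 counts in a THP-1 library, 0 had a lower log2 ratio than TERT, with counts under 3 raised to a floor of 3. In K562, 5.15% of 12736 genes had a lower one. Fewer cells with TERT mRNA and less of it per cell cannot be told apart in bulk RNA.

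TERT (ENSG00000164362) lies on the minus strand of chromosome 5 from 1253147 to 1295069 on GRCh38, with 6 annotated transcripts, and no other annotated gene shared its span. Its proximal promoter is shown because TERT is the member with the widest range of values as a ratio, from 0.296 to 26.8 CPM. The window also holds motifs bound by MYC and by SP1, genes whose counts are given further on. The 250 bases upstream of the RefSeq start (chr5:1295069-1295318, minus strand, GRCh38.p14) are printed with the E-box CACGTG and the GC box GGGCGG, the motif bound by SP1, in capitals on either strand.
TERT: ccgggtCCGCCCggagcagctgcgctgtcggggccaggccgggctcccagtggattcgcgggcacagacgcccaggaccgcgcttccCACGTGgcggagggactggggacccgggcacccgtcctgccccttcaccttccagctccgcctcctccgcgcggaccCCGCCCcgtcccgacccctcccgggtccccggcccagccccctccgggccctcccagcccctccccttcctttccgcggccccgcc
The E-box begins 163 bases before the start, and 2 GC boxes were found. Of the 35116 promoter entries of the same length, 6.34% hold the E-box and 42.6% hold the GC box. GC content of the window was 78.8%, against a median of 58.0% over all promoters.

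**Figure D1:**
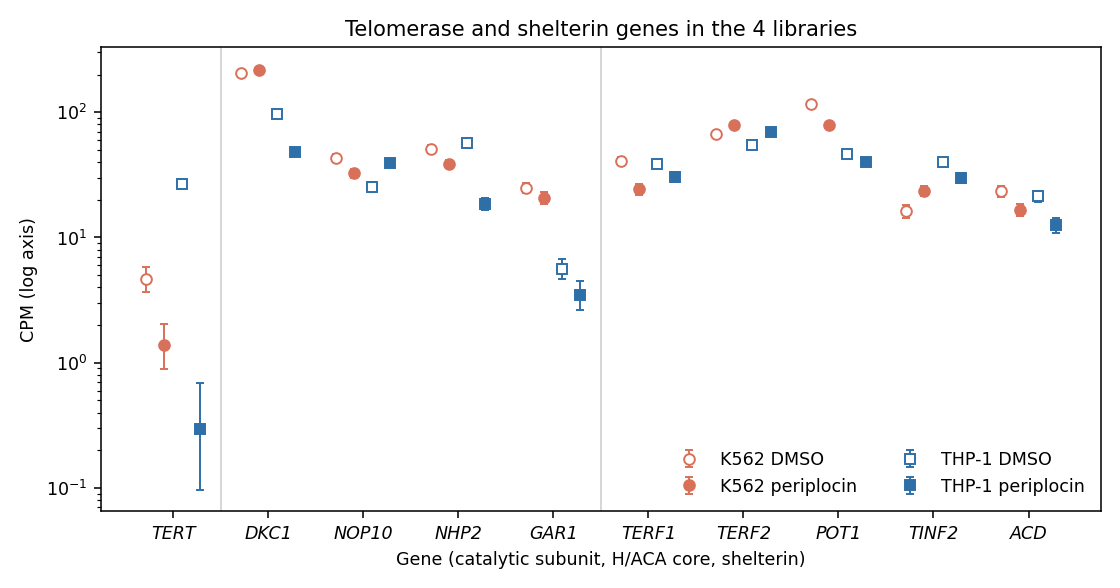
CPM of each gene on a log axis in the 4 libraries, with open symbols for DMSO, filled symbols for periplocin, circles for K562 and squares for THP-1, and bars for the exact 95% Poisson interval of counting. TERT spans 0.296 to 26.8 CPM, while the shelterin genes chosen as members lie between 12.6 and 116 CPM in every library.

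Of the 10 genes, 1 was at least 2-fold lower in periplocin in K562 (TERT) and 0 were at least 2-fold higher. Over all genes with at least 10 counts in that pair, 13% were at least 2-fold lower and 10.5% at least 2-fold higher. In THP-1, 3 of the 10 were at least 2-fold lower (TERT, NHP2 and DKC1) and 0 were higher, against 12.5% lower and 9.61% higher over all genes. The median log2 ratio of the 10 genes was -0.40 in K562 and -0.55 in THP-1, where the medians of all genes were -0.01 and -0.04. DKC1, at a log2 ratio of -1.01 in THP-1, just passed 2-fold, and with DESeq2 size factors it was -0.97 and did not. ACD, at -0.76 in THP-1, was the nearest gene there that did not pass. Of the 10 genes, 6 were lower in periplocin in both lines, 1 was higher in both and 3 went in opposite directions, against 32.1%, 29.3% and 38.6% of the 11672 genes counted in both pairs.

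**Figure D2:**
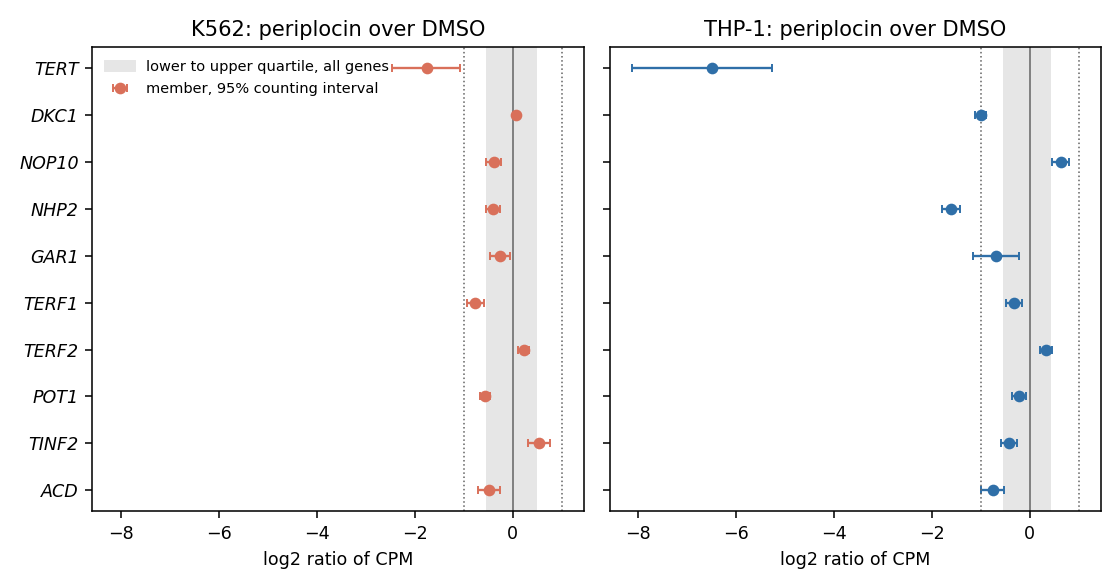
Log2 ratio of CPM, periplocin over DMSO, for each gene in K562 (left) and THP-1 (right), with 95% counting intervals. The grey band runs from the lower to the upper quartile of all genes counted and the dotted lines mark 2-fold. TERT lies outside the dotted lines in both lines, at -1.75 and -6.50. In THP-1 so do NHP2, at -1.61, and, only just, DKC1, at -1.01.

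The genes lie on GRCh38 at chrX:154762742-154777689 (DKC1, ENSG00000130826), chr15:34341713-34343177 (NOP10, ENSG00000182117), chr5:178149460-178153967 (NHP2, ENSG00000145912) and chr4:109815510-109824740 (GAR1, ENSG00000109534). By sign, 3 of the 4 H/ACA genes were lower in each line, the exceptions being NOP10 in THP-1 and DKC1 in K562. At least 2-fold lower were 2 of 4 in THP-1 and 0 of 4 in K562, against 12.5% and 13% of all genes. DKC1, which encodes the pseudouridine synthase dyskerin, had 3514 counts in K562 DMSO and 3766 in K562 periplocin (log2 ratio 0.07, interval 0.01 to 0.14). In THP-1 it had 1929 counts in DMSO and 822 in periplocin, 2.01-fold lower (interval 1.85 to 2.18). NHP2, whose product contacts the RNA through an L7Ae-type fold, had 1124 counts in THP-1 DMSO and 316 in periplocin, 3.05-fold lower (interval 2.69 to 3.46). In K562 the NHP2 counts were 872 and 670, a log2 ratio of -0.41. In THP-1, NHP2 had the lowest ratio of the H/ACA genes, and in K562 its interval of -0.55 to -0.26 overlapped that of NOP10.

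GAR1, which completes the mature particle in exchange for the assembly factor NAF1, was the least abundant H/ACA gene per kilobase in every library. It had 425 counts in K562 with DMSO and 360 with periplocin, and in THP-1 it had 111 and 59, with log2 ratios of -0.27 (interval -0.47 to -0.06) and -0.69 (interval -1.17 to -0.22). NOP10, the smallest protein of the core, went the other way in THP-1, from 502 counts in DMSO to 665 in periplocin (log2 ratio 0.63, interval 0.46 to 0.80). In K562 it had 731 counts in DMSO and 569 in periplocin (log2 ratio -0.39). NOP10 and NHP2 thus had ratios of like size in K562 and of opposite sign in THP-1.

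Summed over the 4 genes, the H/ACA core was at 325 CPM in K562 DMSO and 309 in K562 periplocin, and for THP-1 the sums were 186 and 110 CPM. Per kilobase of the longest transcript, NOP10 made up 31.0% of the H/ACA level in THP-1 with DMSO and 63.8% with periplocin, while NHP2 went from 44.5% to 19.4% and DKC1 from 21.4% to 14.2%. In K562 the NOP10 part was 34.6% in DMSO and 30.9% in periplocin. GAR1 was last in the per-kilobase order of all 4 libraries. NOP10 came first in all 4 when merged exons were used for length, but behind DKC1 in K562 periplocin and behind NHP2 in THP-1 DMSO with the longest transcript.

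The counts of NHP2 and DKC1 may include reads of overlapping genes. Exons of NHP2 overlap those of RMND5B, on the opposite strand, over 414 bases, and whether strand was used in counting is not given in the sources used here. RMND5B itself had 1179 counts in THP-1 DMSO and 1123 in periplocin (log2 ratio 0.15), and 1100 and 1358 in K562. DKC1 holds 2 small nucleolar RNA genes, SNORA36A and SNORA56, which share exonic bases with its annotated transcripts.

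The promoters of the H/ACA genes at the ends of the THP-1 range, NHP2 and DKC1 at the low end and NOP10 at the high end, are printed in the same way, over 250 bases before the RefSeq start. The windows are chr5:178153886-178154135 on the minus strand for NHP2, chrX:154762614-154762863 on the plus strand for DKC1 and chr15:34343137-34343386 on the minus strand for NOP10, all on GRCh38.p14, and capitals again mark E-boxes and GC boxes.
NHP2: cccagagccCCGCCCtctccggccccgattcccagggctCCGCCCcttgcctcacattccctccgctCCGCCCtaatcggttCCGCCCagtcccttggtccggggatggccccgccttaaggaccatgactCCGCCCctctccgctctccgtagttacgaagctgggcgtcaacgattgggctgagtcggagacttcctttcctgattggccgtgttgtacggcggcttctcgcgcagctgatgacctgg
DKC1: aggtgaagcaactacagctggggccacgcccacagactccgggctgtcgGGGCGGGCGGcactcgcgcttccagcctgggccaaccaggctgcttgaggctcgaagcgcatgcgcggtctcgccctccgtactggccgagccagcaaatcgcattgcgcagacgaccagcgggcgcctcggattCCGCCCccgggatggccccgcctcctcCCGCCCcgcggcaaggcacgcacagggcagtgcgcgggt
NOP10: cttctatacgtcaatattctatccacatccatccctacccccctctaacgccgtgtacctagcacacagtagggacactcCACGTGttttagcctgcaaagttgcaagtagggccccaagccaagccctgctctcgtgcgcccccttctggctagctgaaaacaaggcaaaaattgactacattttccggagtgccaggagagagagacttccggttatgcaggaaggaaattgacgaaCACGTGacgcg
NHP2 holds 5 GC boxes and DKC1 holds 4, of which a pair overlaps, and neither window holds an E-box. NOP10 holds 2 E-boxes, beginning 170 and 11 bases before the start, and no GC box. Promoter entries matched 8 of the 10 genes, and TERF1 and TERF2 were not among them. Of these 8, 2 hold an E-box (TERT and NOP10) and 7 hold a GC box in at least 1 entry. Over all promoters, counted by entry and not by gene, 6.34% hold the E-box and 42.6% the GC box.

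The share of all genes past 2-fold, in either direction, was 23.5% for K562 and 22.1% for THP-1. Of the shelterin genes, TERF2IP, described further on, was 2.18-fold higher in K562 with periplocin. The 5 shelterin genes chosen as members stayed within 2-fold of DMSO in both lines. They lie on GRCh38 at chr8:73008864-73048122 (TERF1, ENSG00000147601), chr16:69355561-69408571 (TERF2, ENSG00000132604), chr7:124822386-124929983 (POT1, ENSG00000128513), chr14:24239643-24242674 (TINF2, ENSG00000092330) and chr16:67657512-67660815 (ACD, ENSG00000102977). The double-strand binding proteins TERF1 (TRF1) and TERF2 (TRF2) went in opposite directions. TERF1 had 702 counts in K562 DMSO and 422 in K562 periplocin, a log2 ratio of -0.76 (interval -0.94 to -0.58), and 757 and 517 in THP-1, a log2 ratio of -0.33 (interval -0.49 to -0.16). TERF2 had 1144 and 1364 counts in K562, 1.17-fold higher (interval 1.08 to 1.27), and 1081 and 1170 in THP-1, 1.26-fold higher (interval 1.16 to 1.37). TERF2 was the only 1 of the 10 genes that was higher in periplocin in both lines.

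POT1, the overhang-binding protein, had 1980 counts in K562 DMSO and 1365 in K562 periplocin (log2 ratio -0.56, interval -0.66 to -0.46), and 922 and 676 in THP-1 (log2 ratio -0.22, interval -0.37 to -0.08). Its partner ACD had 398 and 289 counts in K562 (log2 ratio -0.49, interval -0.71 to -0.27) and 422 and 213 in THP-1 (log2 ratio -0.76, interval -1.01 to -0.52). So the POT1 and ACD pair was lower in periplocin in each line. TINF2 (TIN2), the hub between TERF1, TERF2 and ACD, had 276 counts in K562 DMSO and 409 in K562 periplocin, 1.46-fold higher (interval 1.25 to 1.70). In THP-1 it had 791 and 506, 1.34-fold lower. TINF2 was 2.48-fold apart between the lines in DMSO, and closer in periplocin at 23.5 CPM in K562 and 29.9 CPM in THP-1.

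The sixth shelterin gene, TERF2IP (RAP1), which binds TERF2, was taken from a wider list. It had 1495 counts in K562 DMSO and 3318 in K562 periplocin, 2.18-fold higher, and 1409 and 1267 in THP-1 (log2 ratio 0.07, interval -0.04 to 0.18). Per kilobase it was the most abundant shelterin gene in all 4 libraries, at 41.4 CPM per kilobase in K562 DMSO and 90.1 in K562 periplocin, and at 33.7 and 35.4 in THP-1. Its part of the shelterin total per kilobase was 34.4% in K562 DMSO and 56.4% in K562 periplocin. TERF1 was 11.4 CPM per kilobase in K562 DMSO and 6.75 in K562 periplocin, beside 22.5 and 26.3 for TERF2. Exons of ACD overlap those of CARMIL2 on the opposite strand over 58 bases, and CARMIL2 had 142 counts with DMSO and 9 with periplocin in K562, and 21 and 5 in THP-1.

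The DMSO libraries of the lines were set side by side to give the starting levels. TERT was 5.79-fold higher in THP-1 DMSO than in K562 DMSO (interval 4.57 to 7.44), and TINF2 was 2.48-fold higher (interval 2.16 to 2.85). GAR1 was 4.43-fold lower in THP-1 (interval 3.59 to 5.51), POT1 2.49-fold lower (interval 2.30 to 2.69) and DKC1 2.11-fold lower (interval 1.99 to 2.23). Thus 5 of the 10 genes were at least 2-fold apart, 2 higher and 3 lower, near the background of 47.2% over all genes, of which 25.1% were higher and 22.1% lower. The intervals of TERF1 and ACD, at log2 ratios of -0.10 and -0.13, held 0. Per kilobase, TERT was the lowest of the 10 genes in K562 DMSO at 1.15 CPM per kilobase, and in THP-1 DMSO it was at 6.68 and above GAR1 at 4.59. In THP-1 periplocin it was again the lowest, at 0.0736.

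Of the factors that assemble and deliver telomerase, 11 of 12 listed genes were in the table, TERC was not analysed here, and none was at least 2-fold higher in either line. In THP-1, the median log2 ratio was -0.46, with 9 of 11 below 0. There 1 of 11 was at least 2-fold lower, against 12.5% of all genes. That gene was NOLC1 (Nopp140), which binds H/ACA particles, at 4038 counts in DMSO and 1524 in periplocin (log2 ratio -1.18). RUVBL1, an ATPase used in assembly of the particle, had 1071 and 493 counts (-0.90), TGS1, the cap hypermethylase of TERC, 1302 and 670 (-0.73), and NAF1 304 and 171 (-0.61). TENT4B, the polymerase that adenylates TERC, had 353 and 473 (0.65). In K562, 0 of 11 passed 2-fold in either direction, against 23.5% of all genes. The median there was 0.11, with NOLC1 at 2984 counts in DMSO and 3892 in periplocin.

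The box C/D core, a related nucleolar particle that telomerase does not use, gave values beside the H/ACA core. Its 4 genes had a median log2 ratio of -0.69 in THP-1, where the H/ACA core had -0.85, and of -0.35 in K562, where the H/ACA core had -0.33. FBL (fibrillarin), the methyltransferase, had 1951 counts in THP-1 DMSO and 685 in periplocin (log2 ratio -1.29). It was the 1 gene of 4 at least 2-fold lower there, against 12.5% of all genes. SNU13 had 1376 and 709 counts, NOP58 had 2073 and 1134, and NOP56 had 1862 and 1625 (log2 ratio 0.03). None of the 4 passed 2-fold in K562, where 23.5% of all genes did and FBL had 3678 and 2495 counts.

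CST, which binds the overhang after telomerase, and the DNA polymerase alpha-primase that fills in the opposite strand were measured through 7 genes. PRIM1, a primase subunit, was lower to the same extent in both lines, at 1852 counts in K562 DMSO and 649 in periplocin (log2 ratio -1.54), and 1515 and 445 in THP-1 (-1.54). POLA2 had 1308 and 726 counts in K562 (-0.88) and 1167 and 418 in THP-1 (-1.26). These 2 genes were those at least 2-fold lower in THP-1, and PRIM1 was the 1 gene so in K562. Over all genes, 12.5% in THP-1 and 13% in K562 were that much lower. STN1 had log2 ratios of -0.45 and -0.99 in K562 and THP-1, CTC1 -0.45 and 0.67, TEN1 0.18 and -0.17, POLA1 -0.35 and -0.15, and PRIM2 -0.13 and 0.03. Over the 7 genes the median was -0.45 for K562 and -0.17 in THP-1.

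Among 22 telomere processing and protection factors, 1 passed 2-fold in each line, against 23.5% of all genes in K562 and 22.1% in THP-1. In THP-1 it was RTEL1, the helicase that unwinds the telomeric loop, at 653 counts in DMSO and 142 in periplocin (log2 ratio -1.98), whereas K562 had 256 and 407 (0.64). In K562 it was ATM, the kinase that answers to unprotected ends, at 2214 and 6948 counts (1.62), with 4575 and 6106 in THP-1 (0.64). The WRN helicase had 1214 and 2328 counts in K562 (0.91) and 1704 and 856 in THP-1 (-0.77). EXO1, a nuclease that resects the end, had 1575 and 676 counts in THP-1, just short of 2-fold, and SLX4 was at -0.79. In K562 EXO1 was at 0.003 and SLX4 at 0.02. List medians were -0.02 in K562 and -0.23 in THP-1.

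**Figure D3:**
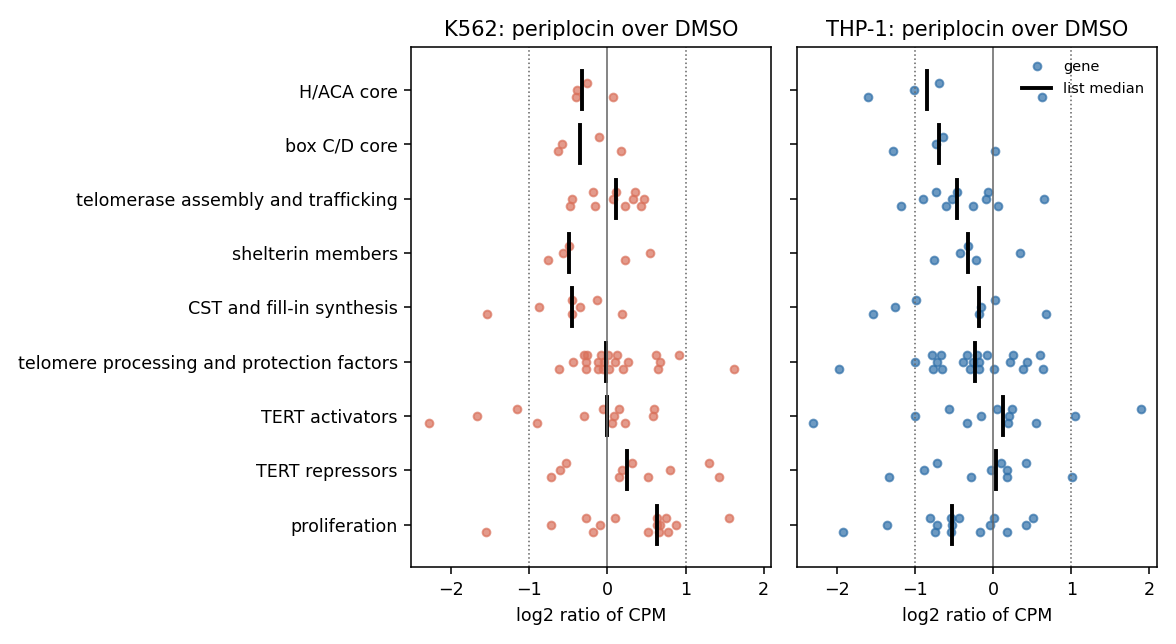
Log2 ratio of CPM, periplocin over DMSO, for the genes of each list with at least 10 counts in the pair, in K562 (left) and THP-1 (right). Points are genes, black bars are list medians and dotted lines mark 2-fold. The H/ACA median is -0.33 in K562 and -0.85 in THP-1.

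Transcription factors known to act on TERT were read from a list of 12 activators and a list of 10 repressors, which do not name direction in these cells. MYC, which binds E-boxes as a dimer with MAX, had 5322 counts in K562 DMSO and 2889 in periplocin (log2 ratio -0.91), and 5889 and 1024 in THP-1 (log2 ratio -2.30). MYB had 8071 and 2592 counts in K562 (-1.67) and 12669 and 5441 in THP-1, just short of 2-fold. ETS1 had 72 and 15 counts in K562 (-2.29), but 1274 and 4041 in THP-1 (1.89), and ETS2 had log2 ratios of -1.15 and 0.25. KLF4 had 187 and 331 counts in THP-1 (1.05). SP1 had 3976 and 4472 counts in K562 (0.14) and 5681 and 7097 in THP-1 (0.545). The part of MYC or SP1 in the TERT values was not tested. In K562, 3 of 12 activators were at least 2-fold lower and 0 higher, and in THP-1 1 was lower and 2 were higher. Over all genes, 13% were that much lower and 10.5% higher in K562, and 12.5% and 9.61% in THP-1. The activator medians were -0.002 in K562 and 0.12 in THP-1.

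The MXD proteins, which compete with MYC for MAX, were higher in periplocin in K562. There MXD4 had 357 counts in DMSO and 975 in periplocin (log2 ratio 1.42), MXD3 76 and 190, and MXD1 1010 and 1786 (0.80). In THP-1, MXD1 had 423 and 726, just past 2-fold, while MXD4 and MXD3 were at 0.10 and 0.18. WT1 had 320 and 109 counts in THP-1 (-1.33) and ZEB1 1201 and 558 (-0.88). Of 10 repressors, 2 were at least 2-fold higher in K562 and 0 lower, and in THP-1 1 was higher and 1 lower. Over all genes, 10.5% were that much higher and 13% lower in K562, and 9.61% and 12.5% in THP-1. The repressor medians were 0.25 in K562 and 0.04 in THP-1.

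Markers of cell state also differed between these libraries. Among 10 monocyte and macrophage maturation genes with at least 10 counts in THP-1, 7 were at least 2-fold higher in periplocin and 0 lower. Over all genes, 9.61% were that much higher and 12.5% lower in THP-1, and 10.5% and 13% in K562. By sign alone, 8 of these 10 THP-1 genes were above 0 and 2 below. The 2 below were LYZ, at 3962 counts in DMSO and 2752 in periplocin, and CSF1R, at 3086 and 2286. The list of 12 summed to 719 CPM in THP-1 DMSO and 1235 CPM in periplocin, with CD14 going from 8 to 382 counts. In K562 all 13 erythroid maturation genes were at least 2-fold higher, and their sum went from 2142 to 13210 CPM, though reads of the near-identical pairs HBG1 and HBG2 and HBA1 and HBA2 may have been split between copies. Of 15 proliferation genes, 1 was at least 2-fold higher and 1 lower in K562 (median log2 ratio 0.63), and 2 were lower in THP-1 (median -0.53), RRM2 and CCNE1. Of 6 erythroid genes with at least 10 counts in THP-1, 2 were at least 2-fold higher and 3 lower (median log2 ratio -0.88). Other than AQP1, they had at most 24 counts in either THP-1 library. HBG2 had 24 and 0 counts while HBG1 had 22 and 16, and HBA2 had 10 and 0 while HBA1 had 10 and 19. The possible split of reads between copies applies to these THP-1 counts too. The erythroid sum there was 5.87 CPM with DMSO and 18.6 CPM with periplocin, of which AQP1, a water channel also made outside the erythroid lineage, had 0.557 and 14.8 CPM. In K562, 4 of the 8 monocyte genes with at least 10 counts were at least 2-fold higher and 1 lower. Their median log2 ratio was 1.05, against 1.31 in THP-1. The monocyte list summed to 67.1 CPM in K562 with DMSO and 117 CPM with periplocin. CD163 had 0 counts in both K562 libraries, and 1 and 4 counts in THP-1 DMSO and periplocin. The part of these states in the TERT values was not tested.

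Genes around TERT were examined because the gene lies near the end of the short arm of chromosome 5. Of 21 other genes of the table within 1 Mb of TERT, 17 had at least 10 counts in each line, NKD2 being counted in THP-1 alone and SLC6A19 in K562 alone. In THP-1, 3 of the 17 were at least 2-fold lower and 1 higher, and in K562 1 was lower and 2 were higher. These counts were near the shares over all genes, 12.5% lower and 9.61% higher in THP-1, and 13% and 10.5% in K562. The nearest gene with counts in both lines, CLPTM1L, lies from 1317744 to 1345099 and had 4305 counts in THP-1 DMSO and 2726 in periplocin (log2 ratio -0.44), and 2338 and 2527 in K562 (0.09). SLC6A18 and SLC6A3, on either side, had 0 counts in all 4 libraries, which does not exclude a low level. The lower genes in THP-1 were NKD2, at 699 and 86 counts (-2.80), TRIP13, at 1544 and 402 (-1.72), and LPCAT1, at 2453 and 910 (-1.21). TRIP13 and NKD2 are neighbours in the table, and SLC12A7 and CLPTM1L, both within 2-fold in THP-1, lie between NKD2 and LPCAT1. SLC12A7 in K562 had 991 and 3557 counts (1.82), and 1010 and 931 in THP-1.

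**Figure D4:**
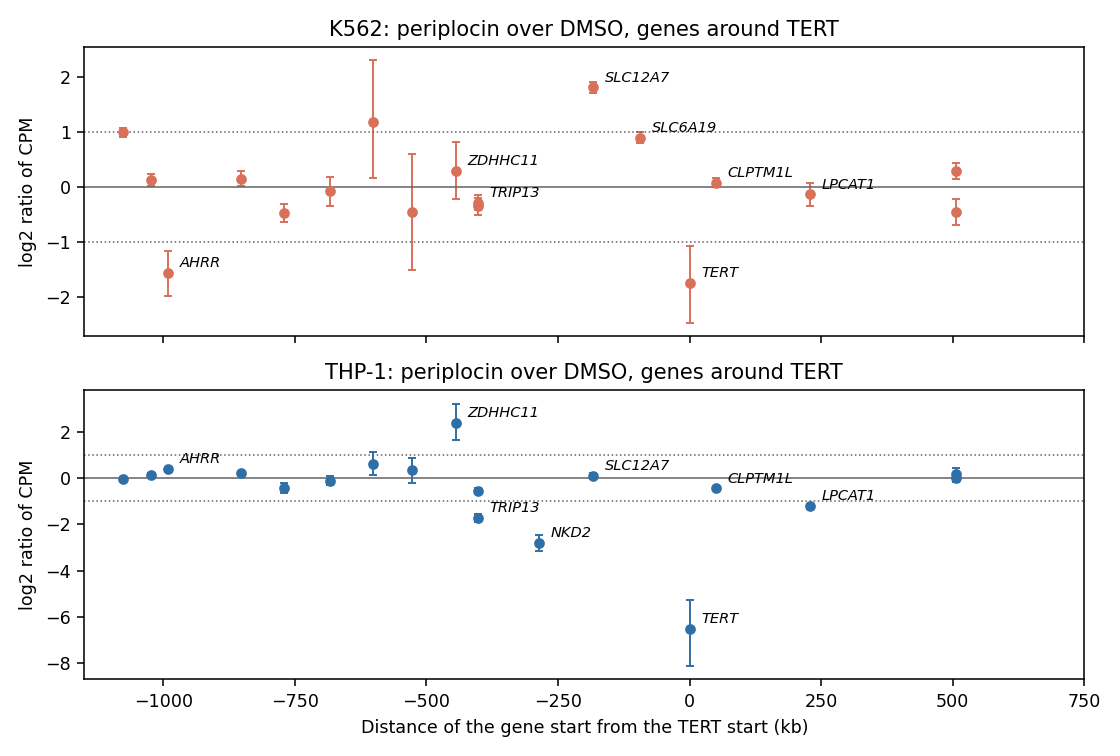
Log2 ratio of CPM, periplocin over DMSO, against the distance of each gene start from the TERT start in kilobases, in K562 (top) and THP-1 (bottom), for genes with at least 10 counts in the pair. Bars are 95% counting intervals and dotted lines mark 2-fold. TERT is the lowest point in each panel, and CLPTM1L, the next point to the right, lies within 2-fold in both.

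The genes whose profile was most like that of TERT were found by the Euclidean distance between log2(CPM + 0.5) values centred over the 4 libraries, among 12667 genes with at least 50 counts in a library. The nearest was SIGLEC6, a sialic acid-binding receptor, at a distance of 0.78, with 120 counts with DMSO and 39 with periplocin in K562, and 559 and 22 in THP-1. MS4A3, a marker of granulocyte and monocyte progenitors, followed at 1.24, with 349 and 91 counts in K562 and 2721 and 124 in THP-1. PPDPF was at 1.45, ASL, the argininosuccinate lyase of the urea cycle, at 1.65 and SYNC at 1.65. PPDPF and ASL were lower with periplocin in both lines, at log2 ratios of -1.76 each in K562, and of -3.23 (PPDPF) and -2.94 (ASL) in THP-1. SYNC differed from TERT in K562, where it had 17 counts with DMSO and 20 with periplocin (log2 ratio 0.21), and had 156 and 5 in THP-1. The next gene was at 1.71, and no other telomerase or shelterin gene was among the 5 nearest. Likeness over 4 libraries with 1 per condition describes these libraries only.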

How the data were processed

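Poly-A RNA of K562 and THP-1 cells in DMSO or 100 nM periplocin for 72 h was sequenced in 4 paired-end libraries. The authors deposited 1 table of expected counts per gene, neither normalized nor pooled, in which between 87.3% and 88.3% of values per library are whole. The submitters' processing notes name HISAT2, StringTie 1.3.1 and hg38 without stating their roles, the counting program is not given in the sources used here, and the labels and methods name different sequencers. No column was left unused.

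Expected counts were rounded to whole numbers. Library totals were scaled by TMM over the 4 libraries (edgeR 4.0.16, R 4.3.3), and CPM were computed from the scaled totals in Python 3.11.15. Symbols were matched by Ensembl identifier for 19727 of 20348 genes, and positions and lengths came from GENCODE release 29 (GRCh38) for 20118. Where a symbol had several identifiers, the one with most counts was used. Promoters came from RefSeq on GRCh38.p14.

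With 1 library per condition no test was run. Ratios were CPM ratios with exact conditional binomial (Clopper-Pearson) intervals at 95%, which cover counting error only and, for estimated counts, are the least error possible. Genes with at least 10 counts in a library of the pair were counted, past 2-fold or not, with counts under 3 raised to 3. The ratios and intervals were tested on simulated data. Members and lists were chosen with earlier results of these data known, and the lists were written from general knowledge. Named genes were all members, every gene of lists of 8 or fewer, the 5 with the largest ratio in longer lists among those with at least 50 counts, genes around TERT and the 5 profiles nearest to TERT. CARMIL2, RMND5B, SNORA36A, SNORA56, SLC6A18, SLC6A3 and CD163 were named after their values were seen, for overlap or for counts of 0. So were CSF1R, for its sign, SP1, for its motif, and HBA1, as a copy of HBA2. Alternatives were other scalings (DESeq2 1.42.0 size factors, totals), folds, filters, a pseudocount, unrounded counts and merged exon lengths. Values of 1 gene of the maturation lists are not reported here.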

Additional observations from a re-analysis of the deposited data

Results flagged for a closer look

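Among 42 members and named genes of the telomere lists, 10 had counting intervals that lay on opposite sides of 0 in the lines. Genes of the longer lists were named for their largest ratios, and the share of all genes with such intervals was not computed. Opposite signs alone, whatever the interval, were seen in 38.6% of 11672 genes. With 1 library per condition the differences between the lines were not tested. The members among the 10 were DKC1, at log2 ratios of 0.074 in K562 and -1.01 in THP-1, NOP10, at -0.39 and 0.63, and TINF2, at 0.54 and -0.42. Among genes of the other lists, NOLC1 was at 0.36 in K562 and -1.18 in THP-1, RTEL1 at 0.64 and -1.98, WRN at 0.91 and -0.77, and ZEB1 at 0.18 and -0.88. CTC1 was at -0.45 in K562 and 0.67 in THP-1, ETS1 at -2.29 and 1.89, and ETS2 at -1.15 and 0.25. The K562 intervals of DKC1 (0.007 to 0.14) and ZEB1 (0.014 to 0.355) began close to 0. Leaving mitochondrial genes out of the totals shifted the K562 ratios by a median of -0.043.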

How the results depend on the processing

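Under the 4 other scalings, 80 of 80 member ratios of periplocin over DMSO kept their sign and moved by less than the distance from centre to end of their counting interval, and 128 of 128 list medians moved by less than the median distance from centre to end over the genes of the list. The count of members at least 2-fold lower in THP-1 was 3, or 2 with DESeq2 size factors, where DKC1 was at -0.97. At 1.5-fold, 2 members were lower in K562 and 5 in THP-1, where 1 was higher, and the share of all genes past that fold was 43.7% (K562) and 41.5% (THP-1). At 4-fold, 0 members were lower in K562 and 1 (TERT) in THP-1, and 6.45% and 5.64% of all genes passed. Other filters put between 17.5% and 21.9% of all genes past 2-fold, where 23.5% in K562 and 22.1% in THP-1 were counted. Total counts in place of TMM shifted the median THP-1 over K562 ratio of all genes by -0.12, and DKC1 then stood at -1.20 and POT1 at -1.44 in that comparison. With merged exons, 7 of 40 levels per kilobase stayed within their counting interval, since the length differs. No paired analysis was possible because each group has 1 library. The 5 TERT counts in THP-1 periplocin set the width of that interval.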
